A study of Homo sapiens with 12 samples.

Results

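The 33 genes described here encode enzymes of cholesterol and fatty acid synthesis and the proteins that regulate them through the SREBP transcription factors. They were taken by symbol from the known pathway and matched to Ensembl identifiers, and they are 33 of the 60107 identifiers in the deposited count table. By function, 21 belong to the sterol arm, 9 to the fatty acid arm and 3, SREBF1, SREBF2 and SCAP, are regulators placed in neither arm. The question addressed was whether the sterol arm and the fatty acid arm behave alike when cells are given carmofur, and whether this is the same in both cell lines.

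RNA was measured in U251 cells, an established human glioblastoma line, in versions that the labels call U251P and U251T; the labels do not say what the letters P and T mean. In each line, 3 libraries came from cells given carmofur, an acid ceramidase inhibitor derived from fluorouracil, at 5 µM, and 3 from cells given DMSO as the vehicle, which makes 12 libraries. Cells of all 4 groups were starved of serum for 16 h and then kept for 24 h in full medium with 10% FBS; the labels place carmofur in those 24 h, whereas the paper also places it in the starvation. QuantSeq libraries hold sequence from near the poly(A) tail, and their counts are independent of how long a transcript is; levels are given as CPM, counts scaled to a common library size after TMM adjustment.

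SREBP proteins are made as precursors in the membrane of the endoplasmic reticulum, where INSIG proteins hold them back, through the escort protein SCAP, as long as sterols are plentiful. When sterols run low, SCAP carries the precursors to the Golgi, where proteases release the part that enters the nucleus and switches on the enzymes of both arms; SREBP2, from SREBF2, acts mainly on sterol genes and SREBP1, from SREBF1, mainly on fatty acid genes. Glioblastoma cells are known for strong lipid synthesis driven by growth factor receptors through SREBP1.

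The libraries of the lines stood apart in depth and content. Total counts in U251P were 5064504, 3295045 and 5263645 with vehicle and 6350873, 5952838 and 4144841 with carmofur. In U251T they were 1300727, 2817379 and 566061 with vehicle and 969763, 1078340 and 383633 with carmofur, so that each U251T library was shallower than each U251P library. Mitochondrially encoded genes took 19.5% to 26.2% of the counts in U251P and 0.354% to 0.881% in U251T. A floor of 3 counts, which covers counting error only, corresponded to 0.472 to 0.910 CPM in U251P and to 1.06 to 7.82 CPM in U251T. All 33 members had counts in every U251P library, whereas 21 had counts in every U251T library, 4 had 0 counts in a U251T group and 9 had at most 3. The comparisons within U251P use only the U251P libraries and do not rest on those of U251T.

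The 27 marker genes of glial and other cells also separated the lines. Their summed level was 6817, 7490 and 6826 CPM in the U251P vehicle libraries and 7280, 7035 and 7480 CPM with carmofur. In U251T it was 16007, 14406 and 16152 CPM with vehicle and 12779, 11132 and 11518 CPM with carmofur, and VIM was the most abundant marker in all 12 libraries. In U251P 22 of the 27 had counts, and AIF1, LUM, STMN2, PECAM1 and VWF were at 0. In U251T 21 had counts, and S100B, CHI3L1, AIF1, LUM, EPCAM and VWF were at 0. Of the astroglial and glioblastoma markers, SOX2, NES and FABP7 had 2, 6 and 1 counts over all U251T libraries. GFAP had 1 count in U251P and ran from 21.1 to 82.7 CPM in U251T. This set summed to between 4437 and 5241 CPM in U251P and between 9079 and 14661 CPM in U251T. VIM made up most of these sums. In vehicle, 3 of the 8 tested in this set were higher and 5 lower in U251T by edgeR's quasi-likelihood test. The 3 fibroblast markers summed to between 4.46 and 8.20 CPM in U251P and to between 1305 and 2020 CPM in U251T, nearly all of it from COL1A1. B2M ran from 1553 to 1933 CPM in U251P and from 0.774 to 15.8 CPM in U251T, and the 3 epithelial markers summed to between 164 and 221 CPM in U251P and between 1.89 and 13.2 CPM in U251T. With carmofur, 5 of the 8 markers tested in U251T (62.5%) passed edgeR's quasi-likelihood test, against 17.1% of all genes tested there. VIM (log2 fold change −0.67) and GFAP (−0.96) were lower and SPARC (1.10), CD44 (0.39) and COL1A1 (0.40) higher. In U251P 0 of the 14 markers tested passed it, as did 0% of all genes tested. There 0 markers were under 0.05 before adjustment in edgeR, and DESeq2 called 0 genes. Whether depth or the cells that these markers mark have a part in the U251T values below was not tested, and fewer cells of a kind cannot be told apart from less RNA per cell.

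Promoters from RefSeq (GRCh38.p14) matched 29 members in 40 windows of 300 bases; the members not matched were ACAT2, FDFT1, SQLE and FASN. On either strand, the core of the sterol regulatory element, CACNCCAC, was found in 7 of the 40 windows (17.5%, against 5.87% of all 35116 windows) and in 6 members, IDI1, SC5D, INSIG1, ACACA, SCD and SREBF2. The NF-Y motif CCAAT was in 26 windows (65.0%, against 34.6% of all) and 22 members, and the SP1 motif GGGCGG in 35 windows (87.5%, against 45.0%) and 27 members. In the sterol arm 3, 15 and 17 of 18 members held the respective motifs, and in the fatty acid arm 2, 6 and 7 of 8. The 250 bases before the RefSeq start are printed for INSIG1, SREBF1 and ELOVL6, the members with the smallest p-values in U251P, and for ACLY, the member that passed the test in U251T, in lower case with matches to any of these motifs in capitals. They lie at chr7:155297628-155297877 on the plus strand for INSIG1, chr17:17836987-17837236 on the minus strand for SREBF1, chr4:110198616-110198865 on the minus strand for ELOVL6, and chr17:41919023-41919272 on the minus strand for the first of 2 listed windows of ACLY.
INSIG1: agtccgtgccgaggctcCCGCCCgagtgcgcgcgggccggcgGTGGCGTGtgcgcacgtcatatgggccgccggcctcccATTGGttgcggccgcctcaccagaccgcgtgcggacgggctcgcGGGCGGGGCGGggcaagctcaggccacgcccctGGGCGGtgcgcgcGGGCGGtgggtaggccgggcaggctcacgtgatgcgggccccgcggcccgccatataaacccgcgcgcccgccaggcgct
SREBF1: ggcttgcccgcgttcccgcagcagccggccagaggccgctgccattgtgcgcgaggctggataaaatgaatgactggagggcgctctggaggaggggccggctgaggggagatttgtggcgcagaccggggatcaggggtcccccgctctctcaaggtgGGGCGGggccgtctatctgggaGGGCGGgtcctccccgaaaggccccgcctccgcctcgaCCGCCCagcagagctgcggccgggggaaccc
ELOVL6: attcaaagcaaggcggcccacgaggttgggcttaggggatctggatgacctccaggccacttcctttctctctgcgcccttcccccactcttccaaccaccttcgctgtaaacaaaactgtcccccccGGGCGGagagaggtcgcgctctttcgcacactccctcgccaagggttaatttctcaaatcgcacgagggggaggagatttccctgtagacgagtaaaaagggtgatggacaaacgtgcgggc
ACLY: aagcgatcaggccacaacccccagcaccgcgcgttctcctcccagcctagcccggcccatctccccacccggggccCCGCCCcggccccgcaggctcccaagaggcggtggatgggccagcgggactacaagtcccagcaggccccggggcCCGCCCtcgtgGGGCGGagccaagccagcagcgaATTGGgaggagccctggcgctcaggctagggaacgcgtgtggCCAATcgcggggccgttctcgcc
In the printed stretch INSIG1 held 1 sterol regulatory element core, 1 NF-Y motif and 5 SP1 motifs, ACLY held 2 NF-Y and 3 SP1 motifs, and SREBF1 and ELOVL6 held 3 and 1 SP1 motifs and neither of the others. A match describes the letters only. The start is the one that RefSeq gives for the window, and GENCODE's outermost start can differ: the stretches of INSIG1 and SREBF1 span it, and those of ELOVL6 and ACLY lie inside the gene.

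In U251P all 33 members had enough counts to be tested, and 0 of 33 passed an adjusted p-value of 0.05 in edgeR's quasi-likelihood test, as did 0% of the 11426 genes tested. DESeq2 also called 0 genes; 402 genes in edgeR and 235 in DESeq2 had p-values under 0.05 before adjustment, and edgeR called 1 gene, not a member, without carmofur replicate 3. Among the members 3 of 33 (9.09%) had an unadjusted edgeR p-value under 0.05, INSIG1, SREBF1 and ELOVL6, against 3.52% of all genes. This count rests on single libraries: it was 0 when replicate 2 of either carmofur or vehicle was left out, and 6 when vehicle replicate 1 was. Over all genes the 402 became 223 without carmofur replicate 2 and 688 without carmofur replicate 3. In 3 members, SQLE, TM7SF2 and ELOVL6, every carmofur library was below every vehicle library; groups without overlap made up 9.09% of the members and 8.33% of all genes. The log2 fold change was below 0 in 25 of 33 members (75.8%) and in 50.1% of all genes, and 18 members lay within 1 standard error of 0. In U251T 17 of the 33 members had enough counts, 1 of these (5.88%) passed, which was ACLY, and 17.1% of the 7204 genes tested did. In the lower direction this was 1 of 17 members against 8.2% of all genes, and in the higher direction 0 of 17 against 8.88%; DESeq2 called 866 genes in U251T, ACLY being the only member. Before adjustment, 3 of the 17 (17.6%), ACLY, ACSS2 and INSIG1, had p-values under 0.05, against 29.9% of all genes, and 1 of 17, ACLY, without carmofur replicate 2. Carmofur and vehicle libraries were fully separate in 3 of the 17, ACLY, ACSS2 and ACACA, against 32.9% of all genes. The p-values measure the spread between the 3 libraries of a group, which may be technical. The paper describes all its experiments as done in biological triplicate, with technical replicates in each.

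**Figure D1:**
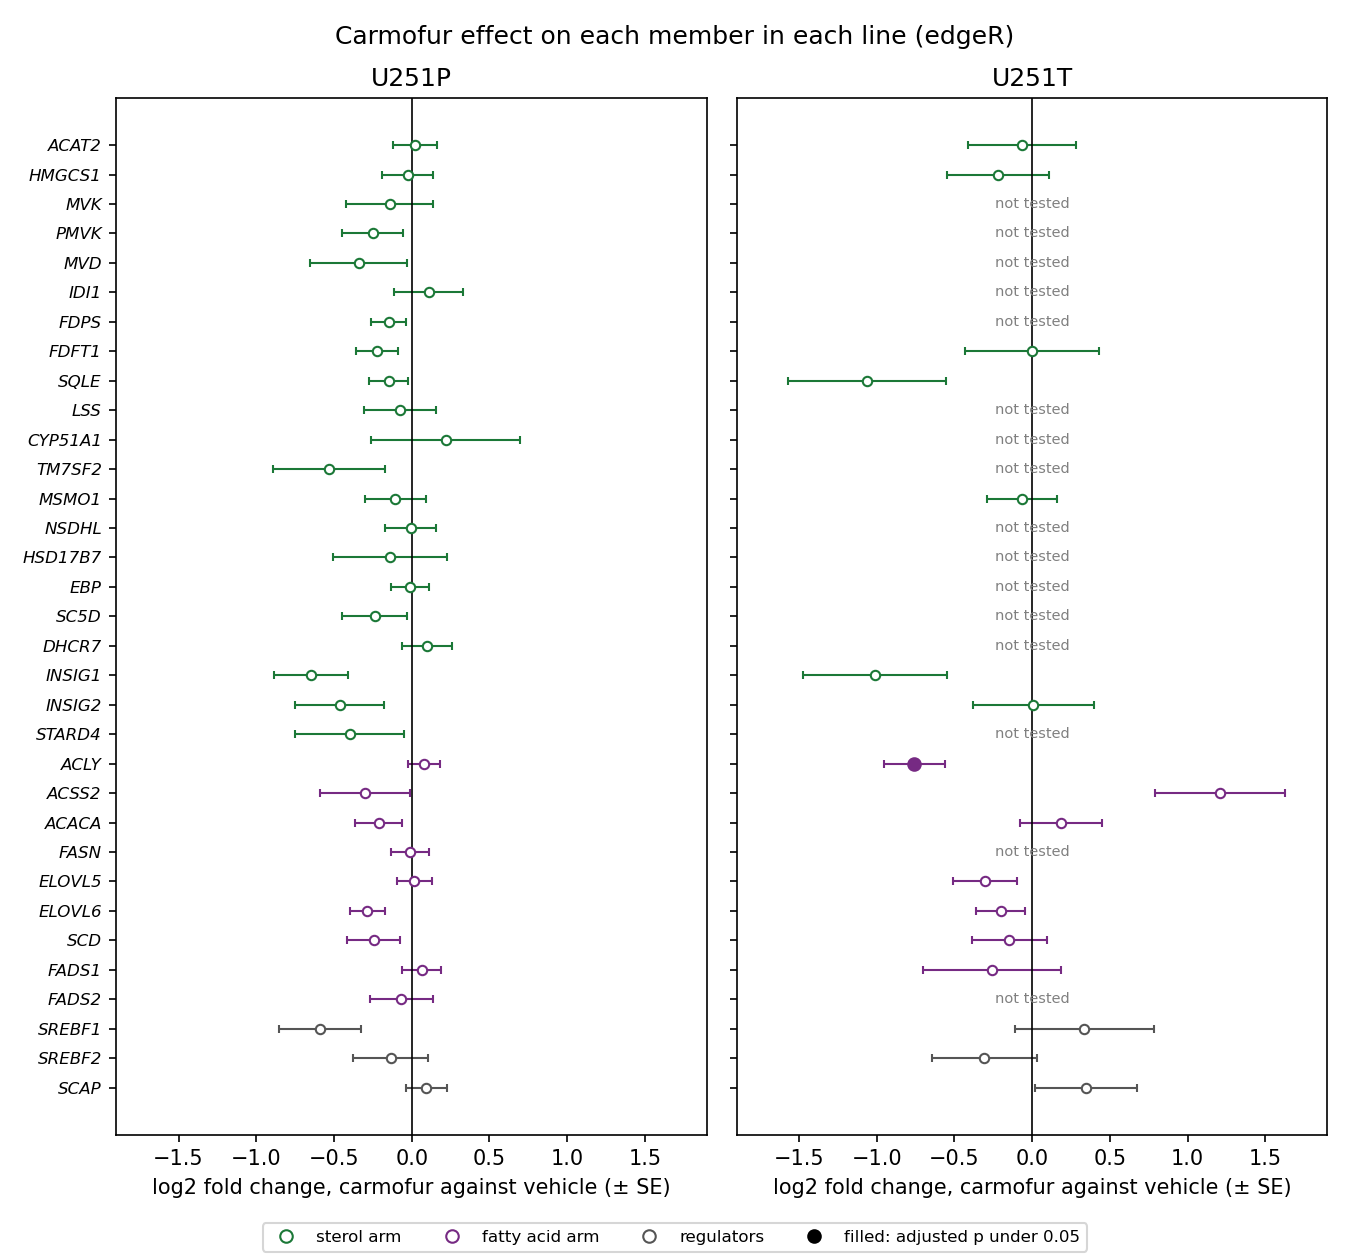
Log2 fold change of carmofur against vehicle for each member in U251P and U251T, with standard errors from edgeR (3 libraries per group); filled points passed an adjusted p-value of 0.05. The values in U251P run from −0.65 to 0.22 and those of the 17 members tested in U251T from −1.06 to 1.21, and the filled point is ACLY in U251T at −0.76.

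The mevalonate and isoprenoid steps, which turn acetyl-CoA into the building blocks of sterols, are covered by ACAT2, HMGCS1, MVK, PMVK, MVD, IDI1 and FDPS. HMGCS1, which condenses acetyl-CoA and acetoacetyl-CoA, was at 26.4, 25.3 and 28.6 CPM in the U251P vehicle libraries and at 31.8, 23.0 and 23.7 CPM with carmofur. In U251T HMGCS1 was at 52.6, 138 and 59.8 CPM with vehicle and at 46.6, 97.6 and 87.0 CPM with carmofur. The groups overlapped in both lines, and vehicle replicate 2 was the highest of the U251T libraries. The other U251T vehicle libraries, at 52.6 and 59.8 CPM, lay above the lowest carmofur library and below the other carmofur libraries. The log2 fold change of HMGCS1 was −0.03 in U251P (standard error 0.164) and −0.22 in U251T (standard error 0.327). FDPS, which makes farnesyl diphosphate, was the most abundant gene of the sterol arm in U251P, at 84.7, 101 and 93.3 CPM with vehicle and 83.6, 77.2 and 91.3 CPM with carmofur, and these overlapped as well. In U251T FDPS had 8 counts over the vehicle libraries and 3 over the carmofur libraries, too few to be tested.

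SQLE oxidises squalene after FDFT1 has made it, and LSS closes the ring to lanosterol. SQLE was at 44.2, 47.3 and 43.4 CPM with vehicle and at 41.4, 38.4 and 41.7 CPM with carmofur in U251P. Every carmofur library of U251P was below every vehicle library, by little, and the log2 fold change of −0.15 (standard error 0.126) had an adjusted p-value of 0.999 in edgeR. In U251T SQLE was at 11.6, 18.9 and 7.04 CPM with vehicle and at 10.3, 4.83 and 2.64 CPM with carmofur, from 69 and 16 counts in all. The highest library was again vehicle replicate 2 and the groups overlapped; the log2 fold change was −1.06 (standard error 0.509, adjusted p-value 0.170 in edgeR). Leaving out vehicle replicate 2 gave −0.59, and leaving out carmofur replicate 1 gave −1.71. FDFT1 was at −0.22 in U251P (standard error 0.134) and at −0.004 in U251T (standard error 0.431) on the log2 fold change scale. LSS had 328 counts over the U251P libraries, where its log2 fold change was −0.08, and 1 count over those of U251T.

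The 8 genes that lead from lanosterol to cholesterol (CYP51A1, TM7SF2, MSMO1, NSDHL, HSD17B7, EBP, SC5D and DHCR7) had log2 fold changes between −0.53 and 0.22 in U251P. TM7SF2, a sterol reductase, was the lowest of them, at 4.07, 4.46 and 5.64 CPM with vehicle and 3.86, 2.09 and 3.95 CPM with carmofur. Its groups did not overlap in U251P, and the log2 fold change of −0.53 had a standard error of 0.359. In U251T TM7SF2 was at 3.87, 4.91 and 3.52 CPM with vehicle and at 13.5, 7.73 and 7.91 CPM with carmofur. There the carmofur libraries were all above the vehicle libraries, from 20 and 24 counts in all, too few for the test within U251T. The difference between the lines was 1.63 (standard error 0.635, adjusted p-value 0.168 in edgeR). MSMO1, a sterol methyl oxidase, was the only gene of these 8 with enough counts for the test in U251T and the most abundant gene of the sterol arm there. MSMO1 was at 109, 176 and 84.5 CPM with vehicle and 137, 106 and 127 CPM with carmofur in U251T, the groups overlapped, and the log2 fold change was −0.07 (standard error 0.225).

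INSIG1 and INSIG2 hold the SREBP precursors back when sterols are plentiful, and INSIG1 is itself a target of SREBP. INSIG1 (ENSG00000186480, chr7:155297776-155310235, plus strand, GRCh38) was at 14.7, 27.9 and 20.2 CPM in the U251P vehicle libraries and at 13.3, 10.3 and 16.3 CPM with carmofur. In U251T INSIG1 was at 10.8, 26.4 and 12.3 CPM with vehicle and at 11.4, 5.80 and 10.5 CPM with carmofur. Vehicle replicate 2 was the highest library in each line, and carmofur replicate 2 the lowest in each; the groups overlapped in both lines. The log2 fold change of INSIG1 was −0.65 in U251P (standard error 0.237; edgeR p-value 0.0151, adjusted 0.999) and −1.01 in U251T (standard error 0.464; edgeR p-value 0.0435, adjusted 0.152), so that it passed the test in neither line. Without vehicle replicate 2 the value was −0.41 in U251P and −0.36 in U251T. INSIG2 was at −0.46 in U251P (standard error 0.285) and 0.01 in U251T (standard error 0.391). STARD4, a sterol carrier, was at −0.40 in U251P (standard error 0.351) and had 1 count over the U251T libraries.

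ACLY and ACSS2 supply acetyl-CoA to both arms, ACLY from citrate and ACSS2 from acetate. ACLY (ENSG00000131473, chr17:41866908-41930542, minus strand, GRCh38) was at 100.2, 97.5 and 98.2 CPM in the U251P vehicle libraries and at 113, 102 and 97.2 CPM with carmofur. In U251T ACLY was at 108, 89.5 and 91.5 CPM with vehicle and at 61.1, 54.1 and 55.4 CPM with carmofur, from 140, 237 and 52 counts and from 59, 56 and 21 counts. The U251P groups overlapped, whereas all 3 carmofur libraries of U251T were below all 3 vehicle libraries and close to each other. In U251T ACLY fell by 0.76 on the log2 scale (standard error 0.198, edgeR p-value 0.00126, adjusted 0.0123), and in U251P the log2 fold change was 0.08 (standard error 0.103, adjusted 0.999). ACLY was called in U251T in 14 of 15 alternative settings, with adjusted p-values from 0.000609 to 0.0629; it was not called without vehicle replicate 1, with a log2 fold change of −0.67 and the adjusted p-value of 0.0629. The carmofur effect on ACLY differed between the lines by −0.90 (U251T minus U251P, log2 scale; standard error 0.242, edgeR p-value 0.000703, adjusted 0.0234). This difference was called in 14 of 20 alternatives, with adjusted p-values between 0.000982 and 0.0805. It was not called when any of 6 libraries was left out, with an adjusted p-value of 0.0789 without U251P carmofur replicate 1, 0.0612 and 0.0591 without U251P vehicle replicates 2 and 3, 0.0594 and 0.0545 without U251T carmofur replicates 2 and 3, and 0.0805 without U251T vehicle replicate 1. The difference itself stayed between −0.98 and −0.80 in these and the other fits that left out a library.

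ACSS2 had a log2 fold change of the opposite sign in U251T. ACSS2 (ENSG00000131069, chr20:34872146-34927962, plus strand, GRCh38) was at 6.40, 7.13 and 6.03 CPM in U251P with vehicle and at 6.48, 5.06 and 3.95 CPM with carmofur, and these groups overlapped. In U251T ACSS2 was at 12.4, 8.30 and 3.52 CPM with vehicle, from 16, 22 and 2 counts, and at 15.5, 23.2 and 23.7 CPM with carmofur, from 15, 24 and 9 counts. All 3 carmofur libraries of U251T were above all 3 vehicle libraries, and the vehicle libraries spread widely. The log2 fold change of ACSS2 was 1.21 (standard error 0.419), the adjusted edgeR p-value of 0.0562 did not pass, and over the alternatives it ran from 0.0162 to 0.192. ACSS2 was called with the replicate block, at the 0.0162, although it is not known whether equal numbers pair the libraries, and with an adjusted p-value threshold of 0.1. The difference between the lines was 1.41 (standard error 0.508, adjusted p-value 0.124 in edgeR), and in U251P the log2 fold change was −0.30 (standard error 0.290).

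**Figure D2:**
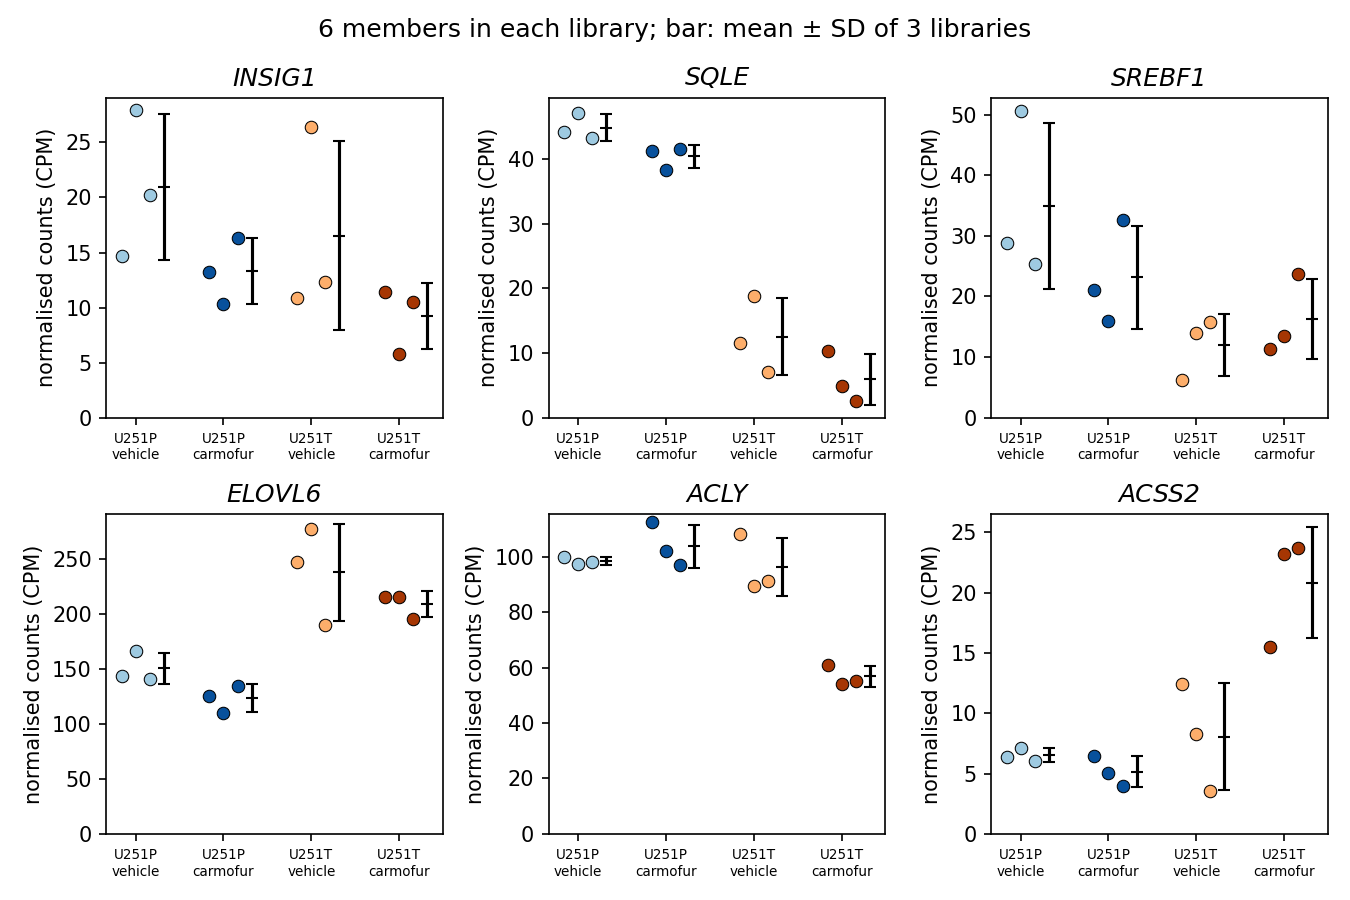
Level of INSIG1, SQLE, SREBF1, ELOVL6, ACLY and ACSS2 in each of the 12 libraries (CPM), with the mean and SD of each group of 3. The ACLY points of U251T lie between 89.5 and 108 CPM with vehicle and between 54.1 and 61.1 CPM with carmofur, whereas the INSIG1 groups overlap in both lines.

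ACACA makes malonyl-CoA and FASN joins it into palmitate. ACACA was at 46.1, 58.8 and 60.3 CPM with vehicle and 39.0, 49.6 and 54.5 CPM with carmofur in U251P. In U251T ACACA was at 27.9, 29.8 and 26.4 CPM with vehicle and at 34.1, 30.9 and 31.6 CPM with carmofur. The groups overlapped in U251P and did not in U251T, where the carmofur libraries were a little higher; the log2 fold change was −0.21 (standard error 0.150) and 0.19 (standard error 0.263). FASN was at 162, 189 and 202 CPM with vehicle and 195, 154 and 199.5 CPM with carmofur in U251P, which overlapped, at a log2 fold change of −0.01 (standard error 0.120). In U251T FASN had 8 counts over the vehicle libraries and 6 over the carmofur libraries.

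ELOVL5 and ELOVL6 lengthen fatty acids, and SCD, FADS1 and FADS2 place double bonds in them. ELOVL6 (ENSG00000170522, chr4:110045846-110199199, minus strand, GRCh38) was at 143, 166 and 141 CPM with vehicle and at 125, 109.8 and 135 CPM with carmofur in U251P. In U251T ELOVL6 was at 247, 277 and 190.0 CPM with vehicle and at 215, 216 and 195 CPM with carmofur. The U251P carmofur libraries were all below the vehicle libraries, and the U251T groups overlapped. The log2 fold change of ELOVL6 was −0.28 in U251P (standard error 0.111, edgeR p-value 0.0217, adjusted 0.999) and −0.20 in U251T (standard error 0.157, edgeR p-value 0.212, adjusted 0.431), and the difference between the lines was 0.01 (standard error 0.243). SCD, which puts the double bond into stearate, was at 110, 178 and 129 CPM with vehicle and 112, 93.7 and 146 CPM with carmofur in U251P. These SCD groups overlapped, as they did in U251T, and the log2 fold change was −0.25 (standard error 0.171) and −0.15 (standard error 0.241). ELOVL5 had log2 fold changes of 0.02 in U251P and −0.30 in U251T (standard errors 0.113 and 0.205), and FADS1 of 0.06 and −0.26 (standard errors 0.125 and 0.442). FADS2 was at −0.07 in U251P and had 0 counts with vehicle and 4 with carmofur in U251T.

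Among the regulators, SREBF1 (ENSG00000072310, chr17:17810399-17837002, minus strand, GRCh38) was at 28.9, 50.5 and 25.3 CPM with vehicle and at 21.0, 15.9 and 32.6 CPM with carmofur in U251P. In U251T SREBF1 was at 6.19, 14.0 and 15.8 CPM with vehicle and at 11.4, 13.5 and 23.7 CPM with carmofur. The groups overlapped in both lines, and in U251P vehicle replicate 2 was far above the others. The log2 fold change of SREBF1 was −0.59 in U251P (standard error 0.262, edgeR p-value 0.0396, adjusted 0.999) and 0.34 in U251T (standard error 0.445, adjusted 0.677); in U251P, leaving out vehicle replicate 2 gave −0.25 and leaving out carmofur replicate 3 gave −0.89. The difference between the lines for SREBF1 was 0.81 (standard error 0.515, adjusted p-value 0.518 in edgeR). SREBF2 had log2 fold changes of −0.13 in U251P and −0.31 in U251T, and SCAP of 0.09 and 0.35.

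The arms as wholes were compared by their medians and by their summed levels, with no test. In U251P the median log2 fold change was −0.14 in the sterol arm, where 17 of 21 members were below 0, and −0.07 in the fatty acid arm, where 6 of 9 were, against −0.0008 over all genes tested. Leaving out carmofur replicate 2 or vehicle replicate 2 turned the fatty acid median of U251P to just above 0, at most 0.00551, and leaving out vehicle replicate 1 gave −0.25. The sterol median of U251P was below 0 whichever library was left out, between −0.17 and −0.10. In U251T the medians over the members tested were −0.07 in the sterol arm (7 tested, 6 below 0) and −0.20 in the fatty acid arm (7 tested, 5 below 0), against 0.01 over all genes. With the regulators included, 12 of 17 members (70.6%) were below 0 in U251T, against 49.0% of all genes. With a library left out, the U251T medians ran from −0.24 to −0.08 in the sterol arm and from −0.33 to −0.06 in the fatty acid arm. The sterol arm had the lower median in U251P and the fatty acid arm in U251T, but these ranges overlapped between the arms in both lines. The order turned in U251P without carmofur replicate 3 (sterol −0.13, fatty acid −0.16) and without vehicle replicate 1 (−0.14 and −0.25). In U251T it turned without vehicle replicate 1 (−0.24 and −0.20) and without vehicle replicate 2 (−0.08 and −0.06).

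The summed level of the sterol arm was 476, 496 and 493 CPM in the U251P vehicle libraries and 463, 409 and 474 CPM with carmofur. All 3 carmofur sums of U251P were below the lowest vehicle sum, the closest pair being 474.1 and 476.3 CPM. In U251T the sterol sums were 267, 442 and 266 CPM with vehicle and 305, 289 and 322 CPM with carmofur, which overlapped because vehicle replicate 2 was high. The fatty acid sums were 862, 1006 and 921 CPM with vehicle and 902, 805 and 932 CPM with carmofur in U251P, which overlapped. In U251T they were 578, 658 and 461 CPM and 510, 494 and 472 CPM, which overlapped too. The ratio of fatty acid to sterol counts was 1.81, 2.03 and 1.87 with vehicle and 1.95, 1.97 and 1.97 with carmofur in U251P. In U251T the ratio was 2.16, 1.49 and 1.74 with vehicle and 1.67, 1.71 and 1.47 with carmofur. The vehicle and carmofur ratios overlapped in both lines. Abundant genes weigh most in these sums, and they differ between the lines. With vehicle, FDPS and EBP had means of 93.1 and 68.1 CPM within the U251P sterol mean of 488 CPM. In U251T MSMO1 and HMGCS1 had 123 and 83.4 CPM within 325 CPM, and ELOVL6 had 238 CPM within the fatty acid mean of 565 CPM. The summed level of the 3 regulators was 80.4, 108 and 85.7 CPM with vehicle and 81.0, 65.1 and 96.9 CPM with carmofur in U251P, and 41.8, 58.1 and 54.5 CPM and 53.8, 50.3 and 71.2 CPM in U251T, again with overlap.

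**Figure D3:**
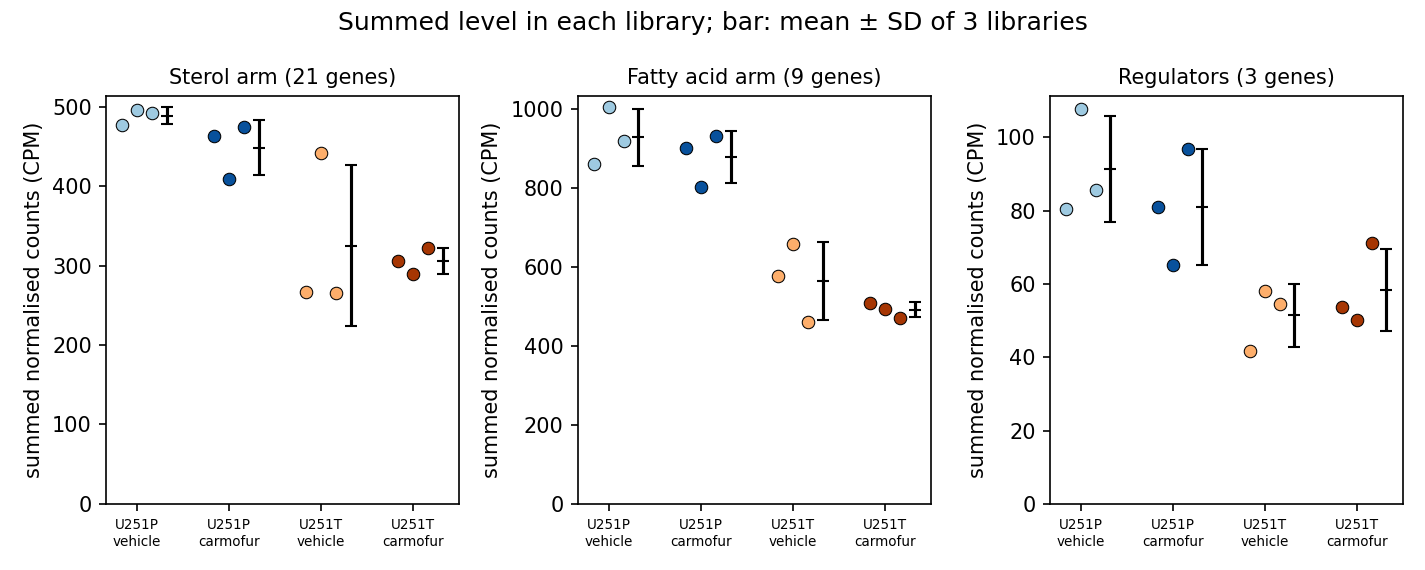
Summed level of the sterol arm, the fatty acid arm and the regulators in each library (CPM), with the mean and SD of each group of 3. In U251P the sterol arm had a mean of 488 CPM with vehicle (SD 10.6) and 449 CPM with carmofur (SD 35.0), and the fatty acid arm 929.5 CPM (SD 72.1) and 879 CPM (SD 66.5).

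The difference in carmofur effect between the lines was tested in a fit of all 12 libraries. It was called in 1 of 33 members (3.03%), ACLY, in the lower direction, and in 4.28% of the 13070 genes tested, with 2.49% lower and 1.8% higher; 0 of 33 members were called higher. DESeq2 called 780 genes, again with ACLY as the only member. The count over all genes was 560. It was 367 without U251T carmofur replicate 1 and 1156 in the replicate block, although it is not known whether equal numbers pair the libraries. Before adjustment, the edgeR p-value was under 0.05 in 5 of 33 members (15.2%) and in 15.1% of all genes. The members were SQLE (−1.06), TM7SF2 (1.63), ACLY (−0.90), ACSS2 (1.41) and FADS2, where U251T had 0 counts with vehicle and no size is given. Without U251T carmofur replicate 3 they were 3 members, TM7SF2, ACLY and ACSS2. Of the 33 members 17 had enough counts for the test within U251T, 7 of 21 in the sterol arm and 7 of 9 in the fatty acid arm. The others had too few U251T counts for it, such as PMVK with 1 count in each U251T group. The differences of these others, which the shares and medians here include, say little about the lines. The difference was below 0 in 16 of 33 members (48.5%) and in 51.2% of all genes, and 20 members lay within 1 standard error of 0. Its median was −0.15 in the sterol arm and 0.01 in the fatty acid arm, against −0.02 over all genes. The fatty acid median ran from −0.16 to 0.19 with each library left out and was below 0 in 5 of these 12 fits, without U251P carmofur replicate 2 (−0.07), U251P vehicle replicate 2 (−0.07), U251T carmofur replicates 1 (−0.03) and 2 (−0.04) and U251T vehicle replicate 3 (−0.16). The sterol median was 0.22 without U251T vehicle replicate 2 and −0.41 without U251T carmofur replicate 3, and with DESeq2 it was 0.08, where the median over all genes was 0.30.

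Without carmofur the lines differed in most members, as in most genes. Of the 31 members tested, 26 (83.9%) differed between U251T and U251P in vehicle by edgeR's quasi-likelihood test, against 86.9% of the 12047 genes tested. In U251T 4 members (12.9%) were higher, against 39.3% of all genes, and 22 (71.0%) lower, against 47.6%. The filter keeps a gene with enough counts in either line. Members such as PMVK (278 counts in U251P and 1 in U251T) and FASN (2512 and 8) passed it through U251P alone. For such members only a lower level in U251T could be found, so these shares and the medians below are no test of the members. The median log2 difference was −1.85 in the sterol arm and −1.03 in the fatty acid arm, against −0.33 over all genes. Members of 0 to 3 counts lie below these medians, so placing them at their bound or counting ratio could not move the medians. With INSIG1 and INSIG2 outside the sterol arm its median was −1.88. With at least 10 counts in every library, which leaves 5 sterol and 5 fatty acid members, the sterol median was 0.38, which is the value of INSIG2, or −0.36 with INSIG1 and INSIG2 outside the arm, and the fatty acid median was −1.32, so that the order of the arms turned in both cases. Without U251T vehicle replicate 2 the sterol median was −2.75. The scale between the lines depends on the fit: the median over all genes was −0.67 without mitochondrially encoded genes, −1.54 without a filter on low counts, 0.01 with at least 10 counts in every library and −0.12 in DESeq2. Depth, mitochondrial share and the markers differ with the line, so that their part in these differences cannot be told apart from it.

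Levels of the vehicle libraries compared between the lines are scaled by TMM over these 6 libraries together, so they differ a little from the levels above, which were scaled within each line. Among the sterol enzymes, MSMO1 stood at 13.8 ± 0.586 CPM in U251P and 119.6 ± 47.0 CPM in U251T with vehicle (SD, n = 3), and HMGCS1 at 27.5 ± 2.80 and 81.2 ± 46.8 CPM (SD, n = 3). Both were higher in U251T, by 3.18 (standard error 0.217) and 1.66 (standard error 0.243) on the log2 scale, although HMGCS1 was at 0.86 without U251T vehicle replicate 2. So was the sterol gene INSIG2 at 1.01 (standard error 0.313); INSIG2 was not called without a filter or with at least 10 counts in every library. FDPS was at 95.7 CPM in U251P and 1.93 CPM in U251T, a log2 difference of −5.74 (standard error 0.314). With the counts of its pseudogene copies added, which makes 1259 and 110 counts, FDPS was lower by 2.03 (standard error 0.194). EBP (−4.60), DHCR7 (−3.52), MVD (−2.99), FDFT1 (−1.88), NSDHL (−1.85), SQLE (−1.70), IDI1 (−1.33), ACAT2 (−1.10) and SC5D (−1.02) were also lower in U251T, although IDI1 was not called without U251T vehicle replicate 1, at −0.99, or with its copies added, at −0.89, and SC5D was not called without U251T vehicle replicate 2, at −0.57. Of the 19 IDI1 counts in the U251T vehicle libraries 17 were in replicate 2, and without it IDI1 was 9.41-fold lower (95% counting interval 2.55 to 78.5). All 4 MVD counts of the U251T vehicle libraries were in replicate 2 too, and without it MVD was at least 4.52-fold lower. Without the same library SQLE was at −2.31. With 1 to 3 counts over the U251T vehicle libraries, PMVK was 97.3-fold lower (95% counting interval 17.3 to 3857), LSS 53.2-fold (9.41 to 2115), STARD4 22.4-fold (3.88 to 898), HSD17B7 17.1-fold (2.94 to 691) and MVK 10.3-fold (3.40 to 50.7). Without U251T vehicle replicate 1, which held their single counts, PMVK was at least 23.0-fold, LSS at least 12.6-fold and STARD4 at least 5.30-fold lower, and without replicate 2 they were 40.5-fold, 22.2-fold and 9.33-fold lower. The single count of HSD17B7 was in replicate 2, and without it HSD17B7 was at least 2.38-fold lower. CYP51A1 was at 1.97 CPM in U251P and 3.78 CPM in U251T, too few counts for the test. CYP51A1 was called higher without U251P vehicle replicate 2, at 1.42, without U251T vehicle replicate 3, at 1.36, and with its copies added, at 3.03, from 25 and 79 counts. HSD17B7 did not have enough counts for the test either, but was called lower in DESeq2, without a filter, without U251P vehicle replicate 2 and without U251T vehicle replicate 1, 2 or 3. With its copies added HSD17B7 had 51 and 7 counts, which makes it 2.55-fold lower in place of 17.1-fold, and was not tested. TM7SF2 (−0.20) and INSIG1 (−0.22) were not called, although INSIG1 was called without U251T vehicle replicate 2, at −1.04.

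Among the fatty acid genes, on the same scale, FASN stood at 189.8 ± 24.4 CPM in U251P and 2.06 ± 1.53 CPM in U251T with vehicle (SD, n = 3), a log2 difference of −6.73 (standard error 0.304). Without U251T vehicle replicate 1, which held 5 of its 8 counts there, FASN was 208-fold lower (95% counting interval 71.2 to 1010.4), and without replicate 2 it was at −5.99. FADS2 had 525 counts over the U251P vehicle libraries and 0 over those of U251T, which makes it at least 61.2-fold lower with a floor of 3 counts over the group, and at least 25.5-fold lower without U251T vehicle replicate 2. FADS1 (−2.42), SCD (−1.07), ACACA (−1.03) and ELOVL5 (−0.69) were lower as well. ELOVL6 was higher in U251T, by 0.61 (standard error 0.146), but this was not called without U251P vehicle replicate 3, at 0.50, or without a filter on low counts, at 0.25, and it was −0.02 with at least 10 counts in every library. ACLY (−0.12) and ACSS2 (0.36) were not called; ACLY was called at −0.36 without mitochondrially encoded genes, at −0.48 without a filter and at −0.75 with at least 10 counts in every library. Of the regulators, SREBF1 (−1.61) and SCAP (−1.13) were lower and SREBF2 (0.27) was not called.

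**Figure D4:**
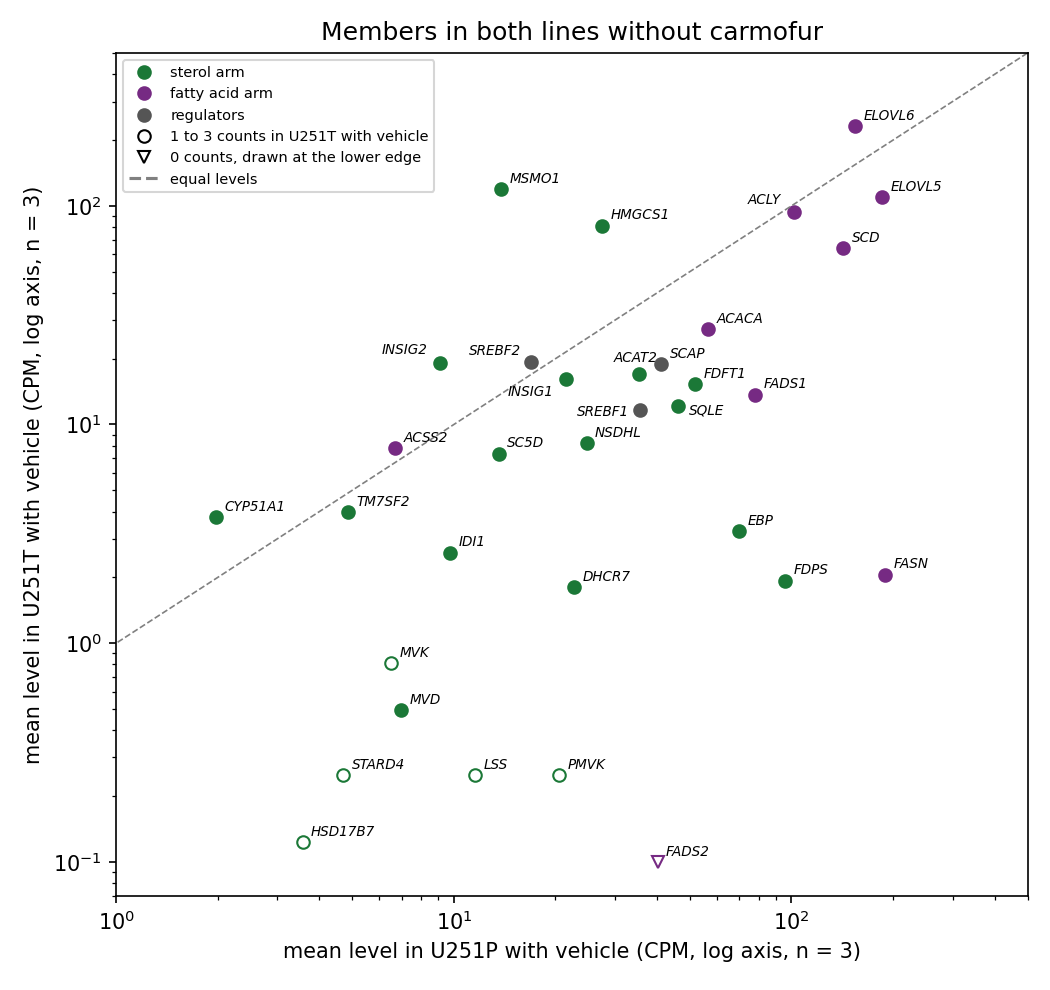
Mean level of each member in the vehicle libraries of U251T against U251P (CPM scaled over both lines together, log axes, 3 libraries each), with the dashed line at equal levels. MSMO1 (13.8 and 119.6 CPM) and HMGCS1 (27.5 and 81.2 CPM) lie above the line in the sterol arm, and FASN (189.8 and 2.06 CPM) and FDPS (95.7 and 1.93 CPM, its copies not counted) far below it.

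Pseudogene copies of a few members had counts of their own. FDPS has 8 annotated copies, which held 4 counts over the U251P libraries and 153 over those of U251T, where FDPS itself had 2612 and 11; in U251T they came from FDPSP1 (63), FDPSP8 (57) and FDPSP5 (33). The 3 copies of CYP51A1 held 3 counts in U251P and 86 in U251T, 83 of them in CYP51A1P2, where CYP51A1 had 61 and 38. The 2 copies of HSD17B7 held 6 and 9 counts, the 9 in HSD17B7P1, where HSD17B7 had 101 and 1. With its copies added, IDI1 went from 19 to 26 counts in the U251T vehicle libraries and stayed at 129 in those of U251P. Some members also overlap a gene on the opposite strand at their 3′ end, where this method reads. ACAT2 overlaps TCP1, with 11757 counts in U251P and 4617 in U251T, and SREBF1 overlaps RAI1, with 864 and 172; FADS1 ends inside FADS2. Whether the counting used the strand is not stated, and the part of these overlaps in the members' counts was not tested.

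A further 44 genes of the pathway, in SREBP processing, sterol handling and other lipid enzymes, give the surroundings of the members. In U251P 41 were tested, 0 passed edgeR's test, 1 was under 0.05 before adjustment and DESeq2 called 0 genes; the median log2 fold change was 0.01 (21 above 0, 20 below). In U251T 22 were tested, 1 was higher and 2 were lower, with a median of −0.14. The 3 called are 13.6% of those tested, against 17.1% of all genes. ABCA1, the cholesterol exporter that sterol-derived signals switch on, was at 16.3, 10.2 and 12.3 CPM with vehicle and at 40.4, 35.8 and 42.2 CPM with carmofur in U251T. All 3 carmofur libraries were above all 3 vehicle libraries, and ABCA1 was higher by 1.62 on the log2 scale (standard error 0.314, adjusted p-value 0.00141 in edgeR). The carmofur effect on ABCA1 differed between the lines by 2.00 (standard error 0.492, adjusted p-value 0.0113 in edgeR); without U251P vehicle replicate 2 this was 1.54, with an adjusted p-value of 0.0768, the highest over the alternatives, of which the lowest was 0.00103. HACD2, which dehydrates fatty acids during elongation, fell by 0.90 (standard error 0.192, adjusted 0.00301 in edgeR) and ACSL3, which activates fatty acids, fell by 0.71 (standard error 0.171, adjusted 0.00704 in edgeR) in U251T, with every carmofur library below every vehicle library. The difference between the lines was −0.96 for HACD2 (standard error 0.247, adjusted p-value 0.0157 in edgeR, range over the alternatives 0.000179 to 0.0594). The HACD2 difference was not called without U251P carmofur replicate 1 (0.0514), U251P vehicle replicate 3 (0.0594), U251T carmofur replicate 1 (0.0526) or U251T carmofur replicate 3 (0.0539). For ACSL3 the difference was −0.68 and did not pass (adjusted p-value 0.111 in edgeR).

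In vehicle 37 of these 44 genes were tested between the lines, and 9 (24.3%) were higher and 22 (59.5%) lower in U251T, against 39.3% and 47.6% of all genes. Here too some genes, such as NPC2 and UBE2G2, passed the filter through U251P alone and could only be found lower. Among those with the smallest p-values were ACSL1, a fatty acid activating enzyme, higher by 6.15 (standard error 0.221), NPC2, UBE2G2, ACSL4, higher by 2.36 (standard error 0.143), and TMEM97, with a log2 difference of −3.27 (standard error 0.235). NPC2, a lysosomal cholesterol carrier, had 3039 counts over the U251P vehicle libraries and 0 over those of U251T, at least 355-fold lower, or at least 148-fold without U251T vehicle replicate 2. UBE2G2, a ubiquitin conjugating enzyme, had 1060 and 3 counts, a ratio of 124-fold (95% counting interval 42.2 to 601). All 3 were in vehicle replicate 2, without which UBE2G2 was at least 51.5-fold lower.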

How the data were processed

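Gene expression was measured in 12 libraries with the QuantSeq 3′ method. The deposited table holds the authors' read count per Ensembl gene identifier, without normalization, and the submitters' processing notes name hg38. Of the 60107 identifiers 56104 had a symbol, with 99.8% of all counts; all 33 members matched. Positions came from GENCODE release 29 (GRCh38) and promoters from RefSeq (GRCh38.p14).

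Libraries were grouped by their labels. Carmofur was compared with vehicle in each line, the carmofur effect between lines in all 12 libraries, and the lines in vehicle, by the quasi-likelihood F test of edgeR (version 4.0.16, R version 4.3.3) with TMM, filterByExpr and two-sided Benjamini-Hochberg adjustment over all genes tested, called at an adjusted p-value under 0.05. The biological coefficient of variation was 0.124 in U251P and 0.154 in U251T. Standard errors are the log2 fold change over the square root of F. Tables and figures used Python (version 3.11.15), pandas (version 2.3.3), numpy (version 2.4.6), scipy (version 1.17.1) and matplotlib (version 3.10.9). Counting intervals and floors cover counting error only. The steps were tested on simulated data.

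Alternatives were DESeq2 (version 1.42.0), upper-quartile factors, no filter, at least 10 counts in every library, no mitochondrially encoded genes, an adjusted p-value under 0.1, a block for the replicate number, a joint fit of all 12 libraries, INSIG1 and INSIG2 outside the sterol arm, and each library left out. Added after seeing the data were only genes with a symbol, an unadjusted p-value under 0.05 in U251T, the medians of the carmofur difference over members tested in U251T, and pseudogene copies counted with their gene between the lines. Genes named are the 33 members, at most the 6 other pathway genes with the smallest p-values per comparison among those called, and the markers. Some items that this rule covers are not reported here. The copies and overlapping genes were named after their counts were seen. The 3 lists (members, other pathway genes and markers) were chosen with earlier results of these data known.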

Additional observations from a re-analysis of the deposited data

Results flagged for a closer look

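The carmofur effect on ACLY differed between the lines by −0.90 on the log2 scale (U251T minus U251P, adjusted p-value 0.0234 in edgeR), since ACLY was lower with carmofur in 3 of 3 U251T libraries and overlapped vehicle in U251P. It is listed because the difference between the lines itself passed the test; 1 of 33 members (3.03%) did, below the 4.28% of all genes. The call was lost in 6 of the 12 fits that left out a library: the adjusted p-value was 0.0789 without U251P carmofur replicate 1, 0.0612 and 0.0591 without U251P vehicle replicates 2 and 3, 0.0594 and 0.0545 without U251T carmofur replicates 2 and 3, and 0.0805 without U251T vehicle replicate 1. Over all alternatives it ran from 0.000982 to 0.0805. The cause was not tested.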

How the results depend on the processing

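In U251P, 0 genes were called by edgeR (402 at an unadjusted p-value under 0.05) and 0 by DESeq2 (235), but 19 without a filter on low counts, 1 with the replicate block and 0 to 1 when each library was left out (1 without carmofur replicate 3); the count of members called was 0 in all of these. The sterol median of U251P stayed between −0.17 and −0.10, and the fatty acid median between −0.25 and 0.00551 when each library was left out. In U251T 1231 genes were called, 866 to 2153 over the alternatives and 837 to 1195 with each library left out, with 2078 in the replicate block and 2153 at an unadjusted p-value under 0.05. Members called there were 2 with an adjusted p-value under 0.1, 2 in the replicate block, 3 at an unadjusted p-value under 0.05, and 0 to 1 with each library left out (0 without vehicle replicate 1). For the difference between the lines, 1156 genes were called in the replicate block and 367 to 721 with each library left out, with 0 to 1 members. The sterol median of that difference was 0.0756 in DESeq2 and −0.41 to 0.22 with each library left out. The fatty acid median of it was 0.00507 over the members tested in U251T and −0.16 to 0.19 with each library left out.

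Between the lines in vehicle, at least 10 counts in every library gave 3737 genes and 9 members called. With this filter the sterol median was 0.38 over 5 members, or −0.36 with INSIG1 and INSIG2 outside the arm. The fatty acid median was −1.32 with it, and ELOVL6 turned to −0.0244. The sterol median was −2.21 without a filter, −2.09 without mitochondrially encoded genes and −2.75 to −1.70 with each library left out, and the fatty acid median was −1.39 without a filter. With pseudogene copies counted with their gene 10471 genes and 26 members were called, and FDPS moved to −2.03. The cause of these shifts was not tested. A change of sign in at least 1 alternative occurred in 14 of 33 members in U251P, 6 of 17 in U251T, 18 of 33 for the difference between the lines and 4 of 31 between the lines.

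Libraries with the same number were not paired: their correlation across genes, after group means were removed, lay between −0.03 and 0.29 in U251P and between 0.0764 and 0.334 in U251T, so the replicate block stands only as an alternative. In U251T 16 of 33 members had too few counts for the test. With 3 libraries per group, the median standard error of a member was 0.196 in U251P and 0.340 in U251T on the log2 scale.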
